A study of Mus musculus with 6 samples.

Results

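The 10 genes described here encode chemokines, the small secreted proteins that direct the movement of leukocytes. They were Ccl2, Ccl5, Ccl6, Ccl9, Cxcl1, Cxcl9, Cxcl10, Cxcl12, Cxcl14 and Cxcl16, taken by symbol from a count table of 21983 genes. All 10 were in the table and all 10 passed the filter on low counts, which left 13153 genes. RNA came from whole livers of 6 C57BL/6 mice that had drunk thioacetamide (TAA), a hepatotoxin that scars the liver when given for long, at 400 mg/L for 16 weeks. In 3 of them, numbers 49, 82 and 88 (Lrat-Cre; Prmt1f/f, called knockout here), both copies of Prmt1 were floxed and Cre was driven from Lrat, a gene that marks hepatic stellate cells in liver. The other 3, numbers 42, 83 and 90 (Prmt1f/f, called control here), carried the floxed alleles without Cre, so a mouse with Cre and no floxed allele was not part of the comparison. Prmt1 encodes an arginine methyltransferase. All groups received TAA, and the age label of 10 weeks is shorter than the 16 weeks of treatment without a stated reference point. The comparison asked how fibrotic liver differed when Prmt1 was targeted in Lrat-expressing cells.

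Chemokines bind to sulphated sugars of the vessel wall and matrix, and their gradients are read by G protein-coupled receptors on passing cells. The CC and CXC families are named for the spacing of their first cysteines. In injured liver, hepatocytes, stellate cells, endothelial cells and macrophages all make chemokines, and the mixture they make affects which leukocytes enter the tissue. Atypical receptors bind the same ligands without the usual signalling and remove or carry them.

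The libraries held between 13303884 and 16462278 counts. Prmt1 averaged 28.8 ± 6.11 CPM, the counts of a gene scaled to a common library size, in knockout livers and 44.4 ± 5.44 CPM in control livers (SD, n = 3 each), and all 3 knockout values lay under all 3 control values. Its log2 fold change was -0.62 (SE 0.20), with an adjusted p of 0.347 in edgeR, and a two-sided exact permutation p of 0.1, the smallest that 3 mice against 3 allow. Hepatocyte markers were abundant in every library, with a summed level from 80698 to 95357 CPM in knockout and from 66862 to 103857 CPM in control livers. Control mouse 90 stood apart from the rest in several chemokines and in interferon-gamma target genes, and also over the table as a whole. The chi-square per degree of freedom between libraries, a measure of how far they differ, was 95.8 to 110 between mouse 90 and each other liver. Each other liver had a nearer one, at 17.1 (82 and 88), 29.9 (49 and 42) or 51.0 (42 and 83), although 82 and 83 were at 105. Sign counts of the chemokine members and of the related gene lists are given with and without mouse 90, as are the chemokine fold changes that rest on that mouse. Marker values of cell types are given with all mice.

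Chemokine mRNA was lower in knockout livers for 9 of the 10 genes by the sign of the fold change, against 52.7% of all genes tested. The median log2 fold change of the 10 was -1.22, and that of all genes tested was -0.02. In edgeR no member passed the adjusted threshold of 0.05 (quasi-likelihood test), and neither did any other gene, a share of 0%. At an unadjusted p under 0.05 the test gave 4 members, all lower in knockout livers (Cxcl14, Ccl2, Cxcl16 and Cxcl1). At that level 5.95% of all genes tested were lower and 11.0% differed in either direction. Groups did not overlap in 3 members (Ccl2, Cxcl1 and Cxcl14), all lower, against 7.95% of all genes. DESeq2 called 2 members at an adjusted p of 0.05, Cxcl14 and Ccl2, both lower, against 0.936% of its genes called lower and 1.81% in either direction, and limma-voom called 0 members and 0% of genes. Without control mouse 90, 6 of the 10 genes had a negative fold change, against 56.7% of all genes, and their median was -0.32. Cxcl14 and Ccl2 were then the 2 members lower at an unadjusted p under 0.05, against 5.41% of all genes.

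Leaving out 1 mouse moved these counts. Members with separate groups, all lower, numbered 4 without knockout mouse 49 (17.2% of all genes lower), 3 without 82 (11.6%) and 3 without 88 (12.8%). They numbered 6 without control mouse 42 (17.9%), 3 without 83 (11.0%), 3 without 90 (14.9%) and 7 in the 4 mice numbered over 80 (27.1%). In edgeR 0 members passed the adjusted threshold in any of the 6 fits that left out a mouse, of which the one without mouse 49 called 0.0970% of genes and the others 0%. DESeq2 called 3 members without knockout mouse 49 (3.76% of genes), 1 without 82 (0.343%) and 1 without 88 (0.560%). It called 4 without control mouse 42 (5.84%), 1 without 83 (0.348%) and 1 without 90 (1.76%). In whole liver, fewer cells of a type and less RNA per cell cannot be told apart.

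**Figure D1:**
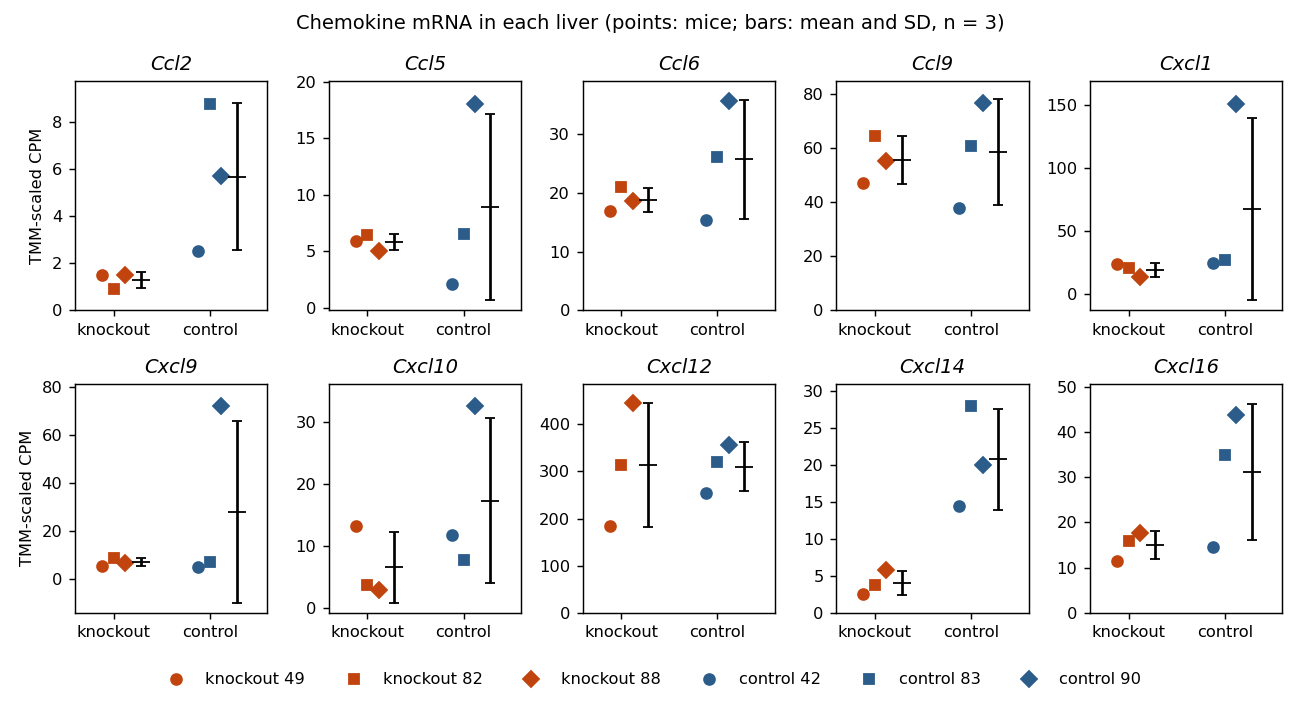
TMM-scaled CPM (y axis, linear, 1 scale per gene) of the 10 chemokine genes in knockout livers (left, orange) and control livers (right, blue), with 1 symbol per mouse and bars for the mean and SD of 3 mice. Cxcl14 and Ccl2 are lower in every knockout liver, while control mouse 90 stands above the other 5 livers in Cxcl1 and Cxcl9, at 151 and 71.7 CPM.

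Cxcl14 differed most. It encodes a chemokine of epithelia and stroma for which no single receptor is firmly established. On chromosome 13 it spans 56288643 to 56296551 of the minus strand (GRCm38, GENCODE M21). Its level was 2.51, 3.75 and 5.84 CPM in knockout mice 49, 82 and 88, against 14.4, 27.95 and 19.96 CPM in control mice 42, 83 and 90. The highest knockout liver lay well under the lowest control liver. The knockout mean was 19.4% of the control mean, at 4.03 ± 1.68 against 20.8 ± 6.81 CPM (SD, n = 3 each). Cxcl14 had a log2 fold change of -2.37 (SE 0.37), with a 95% interval from -3.20 to -1.54, which placed it at rank 10 by p among all genes tested, with an adjusted p of 0.17 in edgeR. DESeq2 gave an adjusted p of 1.65e-06, and over 13 alternative settings (other scalings, filters, tools and sets of mice) the adjusted p ran from 1.65e-06 to 0.832. Here and below, the 13 do not include DESeq2 with a mouse left out. All 13 gave a lower level in knockout livers. Leaving out each mouse in turn gave log2 fold changes from -2.77 to -2.09, and DESeq2 called the gene in each of those 6 comparisons (adjusted p from 2.40e-07 to 9.74e-04). Summed markers of activated stellate cells also separated the genotypes, at 260 to 578 CPM in knockout and 746 to 1147 CPM in control livers, and 9 of 9 of these markers had counts in every mouse. Of the 9, 8 had separate groups, all lower (7.95% of all genes), while 0 passed the adjusted threshold in edgeR and 6 were called lower by DESeq2 (0.936% of all genes). Their part in the Cxcl14 difference was not tested.

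The start region of Cxcl14 is shown because this gene had the largest difference of the 10. It covers 250 bases before and 50 after the RefSeq start (GRCm38.p6, chr13:56296502-56296801, minus strand). The capitals mark a match, at -191 from the start site, to TTCNNNGAA, the core letters of the gamma-activated site, and a match to GAAA repeated after 2 bases of any kind, the core of the interferon-stimulated response element, which begins at -172.
Cxcl14: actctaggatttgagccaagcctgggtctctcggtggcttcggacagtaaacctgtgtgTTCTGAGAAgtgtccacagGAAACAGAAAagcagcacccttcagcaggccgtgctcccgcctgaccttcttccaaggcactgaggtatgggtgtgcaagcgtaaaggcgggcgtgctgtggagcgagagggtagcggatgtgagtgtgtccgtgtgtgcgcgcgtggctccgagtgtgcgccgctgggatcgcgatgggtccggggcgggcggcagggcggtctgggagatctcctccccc
Of 32851 start regions of this length in the table, 8.3% held the first pattern and 3.44% the second on either strand. The third pattern searched, GGG followed by TCC after 4 bases of any kind, which holds the outer letters of NF-kB sites, was not found in this window and occurs in 19.2% of them. Such matches describe letters and not bound sites.

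Ccl2, the ligand of CCR2 that draws monocytes out of blood, was the second member by p. On chromosome 11 it spans 82035571 to 82037453 of the plus strand. It had 1.48, 0.899 and 1.51 CPM in knockout mice 49, 82 and 88, against 2.53, 8.79 and 5.73 CPM in control mice 42, 83 and 90. No knockout liver reached the lowest control liver, although control livers spread 3.47-fold among themselves. Together the knockout livers held 56 counts and the control livers 281. The mean in knockout livers was 22.8% of that in control livers (log2 fold change -2.12, SE 0.49, adjusted p = 0.267 in edgeR). DESeq2 gave an adjusted p of 0.00848, within a range of 0.00848 to 0.839 over the alternatives, all 13 of which were negative. DESeq2 no longer called Ccl2 without knockout mouse 82 (0.166) or 88 (0.0539), or without control mouse 83 (0.316) or 90 (0.0516). It still called it without mouse 49 (0.013) or 42 (5.28e-05).

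Ccr2, the receptor of CCL2 on inflammatory monocytes, had 3.73, 10.3 and 13.3 CPM in knockout mice 49, 82 and 88, against 9.40, 24.9 and 20.4 CPM in control mice 42, 83 and 90. The genotypes overlapped through control mouse 42. The log2 fold change of Ccr2 was -1.001 (SE 0.48, adjusted p = 0.47 in edgeR). Leaving out each mouse in turn, it ran from -1.42 without knockout mouse 88 to -0.62 without knockout mouse 49. Markers of monocytes and recruited macrophages summed to 413 to 1025 CPM in knockout and 678 to 1834 CPM in control livers. Of these 9 markers 8 had counts in every mouse, and Trem2 had none in any. Their part in the Ccl2 difference was not tested.

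Cxcl1, Cxcl9 and Cxcl10 shared 1 feature, a peak in control mouse 90. Cxcl1 recruits neutrophils through CXCR2, and Cxcl9 and Cxcl10 are interferon-gamma inducible ligands of CXCR3 on activated T cells and NK cells. All 3 genes are on chromosome 5, where Cxcl1 spans 90891241 to 90893115 on the plus strand. Cxcl9 spans 92321347 to 92328079 and Cxcl10 spans 92346638 to 92348889, both on the minus strand and 18.6 kb apart.

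Cxcl1 had 23.8, 21.1 and 13.4 CPM in knockout mice 49, 82 and 88, against 24.7, 26.8 and 151 CPM in control mice 42, 83 and 90. Groups did not overlap, but control mouse 42 exceeded knockout mouse 49 by under 1 CPM. Mouse 90 was 5.62-fold above the next highest liver. Cxcl1 had a log2 fold change of -1.79 (SE 0.66, adjusted p = 0.384 in edgeR), which without mouse 90 was -0.45 (SE 0.25). Cxcr2, the neutrophil receptor of CXCL1, had 0.773, 1.12 and 0.36 CPM in knockout mice 49, 82 and 88, against 1.87, 2.90 and 2.29 CPM in control mice 42, 83 and 90. Its groups did not overlap, and the peak of mouse 90 seen in the ligand was not present in the receptor. The log2 fold change of Cxcr2 was -1.64 (SE 0.48, adjusted p = 0.323 in edgeR), and -1.71 without mouse 90. Neutrophil markers summed to 10.9 to 16.2 CPM in knockout and 15.7 to 81.4 CPM in control livers, with 6 of 6 highest in mouse 90. Mpo and Ly6g, which define the lineage, were at 0 in some mice. Their part in the Cxcl1 values was not tested.

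Cxcl9 had 5.67, 8.99 and 6.77 CPM in knockout mice 49, 82 and 88, against 5.07, 7.27 and 71.7 CPM in control mice 42, 83 and 90. Mouse 90 lay 7.98-fold above the next highest liver, and the other 5 livers were mixed between genotypes. Cxcl9 had a log2 fold change of -1.96 (SE 0.89, adjusted p = 0.456 in edgeR), and the sign turned without mouse 90, to 0.16 (SE 0.31). DESeq2 gave no adjusted p for this gene with all mice.

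Cxcl10 had 13.2, 3.67 and 2.88 CPM in knockout mice 49, 82 and 88, against 11.8, 7.72 and 32.6 CPM in control mice 42, 83 and 90. It did not follow Cxcl9, its neighbour on the chromosome: knockout mouse 49 was the second highest liver. For Cxcl10 the log2 fold change was -1.38 (SE 0.67, adjusted p = 0.473 in edgeR), -0.59 without mouse 90 and -2.39 without mouse 49. DESeq2 called the gene only in the comparison without mouse 49 among the 7 it ran (adjusted p = 0.00229, with 3.76% of genes called there). Its adjusted p was 0.303 with all mice in DESeq2 (0.364 to 0.891 without each other mouse). Over the 13 alternatives, which do not include DESeq2 with a mouse left out, it ran from 0.127 to 0.856. Art3 overlaps Cxcl10 on the other strand and had 276 counts over the 6 mice. Cxcr3, the receptor of both proteins, had 0.322, 0.674 and 1.08 CPM in knockout mice 49, 82 and 88, against 0.867, 1.02 and 3.27 CPM in control mice 42, 83 and 90. It also peaked in mouse 90, and its log2 fold change was -1.28 (SE 0.67, adjusted p = 0.505 in edgeR), or -0.50 without that mouse.

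The start regions of these 3 genes are shown because the genes are textbook targets of NF-kB or interferon signalling. Their peak in 1 liver was shared by other members. Each covers 250 bases before and 50 after the RefSeq start (GRCm38.p6), at chr5:90890995-90891294 on the plus strand, chr5:92328030-92328329 on the minus strand and chr5:92348840-92349139 on the minus strand. Capitals mark matches to the NF-kB pattern (GGG, 4 bases of any kind, TCC) or the interferon-stimulated pattern (GAAA, 2 bases of any kind, GAAA) on either strand.
Cxcl1: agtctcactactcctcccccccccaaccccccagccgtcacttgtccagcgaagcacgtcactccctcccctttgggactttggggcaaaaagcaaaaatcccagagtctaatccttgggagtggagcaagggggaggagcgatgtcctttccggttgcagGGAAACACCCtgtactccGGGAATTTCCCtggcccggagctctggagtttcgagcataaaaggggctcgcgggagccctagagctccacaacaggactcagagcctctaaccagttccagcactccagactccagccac
Cxcl9: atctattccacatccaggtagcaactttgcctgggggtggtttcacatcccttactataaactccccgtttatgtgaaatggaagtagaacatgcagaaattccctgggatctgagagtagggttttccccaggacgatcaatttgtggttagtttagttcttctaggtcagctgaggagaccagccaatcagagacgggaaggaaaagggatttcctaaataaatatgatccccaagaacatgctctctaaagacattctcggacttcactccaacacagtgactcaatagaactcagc
Cxcl10: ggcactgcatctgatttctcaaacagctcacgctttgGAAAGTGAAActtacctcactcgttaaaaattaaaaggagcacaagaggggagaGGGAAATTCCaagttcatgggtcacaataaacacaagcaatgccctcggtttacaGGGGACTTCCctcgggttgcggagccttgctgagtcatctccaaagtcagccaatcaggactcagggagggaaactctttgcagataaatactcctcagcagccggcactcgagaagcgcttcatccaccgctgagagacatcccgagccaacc
In Cxcl1 the capitals hold 3 matches to the NF-kB pattern, of which the 2 that begin at -71 and -70 overlap on opposite strands and the other begins at -89. Cxcl10 held NF-kB pattern matches that begin at -159 and -104 and an interferon-stimulated pattern match at -213. None of the 3 patterns was found in the Cxcl9 window, but only exact matches were searched, so sites that depart from these letters would be missed. Among the other members with an entry, Ccl9 held 1 NF-kB pattern match at -35, and Ccl6 and Cxcl12 held none of the 3 patterns. Ccl2, Ccl5 and Cxcl16 were not searched.

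The peak of mouse 90 extended to interferon-gamma target genes. Each of the 13 genes of that list was highest in mouse 90. With all mice each had a negative log2 fold change, with a median of -1.15, whereas without mouse 90 the fold change was positive for 9 of 13 and the median was 0.12. Igtp, a GTPase of cell-autonomous immunity, had 24.3, 33.6 and 22.5 CPM in knockout mice 49, 82 and 88, against 16.7, 21.4 and 277 CPM in control mice 42, 83 and 90. Igtp averaged 26.8 CPM in knockout livers and 19.1 CPM in the control livers other than mouse 90. With all mice, groups overlapped in all 13, and 3 were lower at an unadjusted p under 0.05 (5.95% of all genes). Ciita, the switch of MHC class II transcription, and Psmb9, an immunoproteasome subunit, had the smallest p, with log2 fold changes of -1.41 and -1.80 (adjusted p = 0.42 and 0.427 in edgeR). Without mouse 90 these were -0.62 for Ciita (SE 0.45) and -0.32 for Psmb9 (SE 0.36). In that fit 0 of the 13 were lower at an unadjusted p under 0.05, against 5.41% of all genes. At the same level 2 were higher, Irgm2 at 0.53 (SE 0.18) and Iigp1 at 0.63 (SE 0.23), and 0 passed the adjusted threshold in edgeR. Groups were then separate in 3 of the 13, all higher in knockout livers, and 0 were separate and lower, against 14.9% of all genes. These counts of higher genes have no share of all genes beside them. Whether the list was higher than other genes without mouse 90 was not tested. In mouse 90 the 13 genes lay 1.96-fold to 8.25-fold above the next highest liver. Ifng itself, looked up after the other values were seen, had 3 counts in knockout and 11 counts in control livers in all, 6 of them in mouse 90. Markers of T and NK cells summed to 9.85 to 11.0 CPM in knockout and 3.53 to 33.9 CPM in control livers, and 10 of the 11 markers in the table were highest in mouse 90. In this list Gzma and Gzmb were at 0 in some mice. Their part in the values of mouse 90 was not tested.

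**Figure D2:**
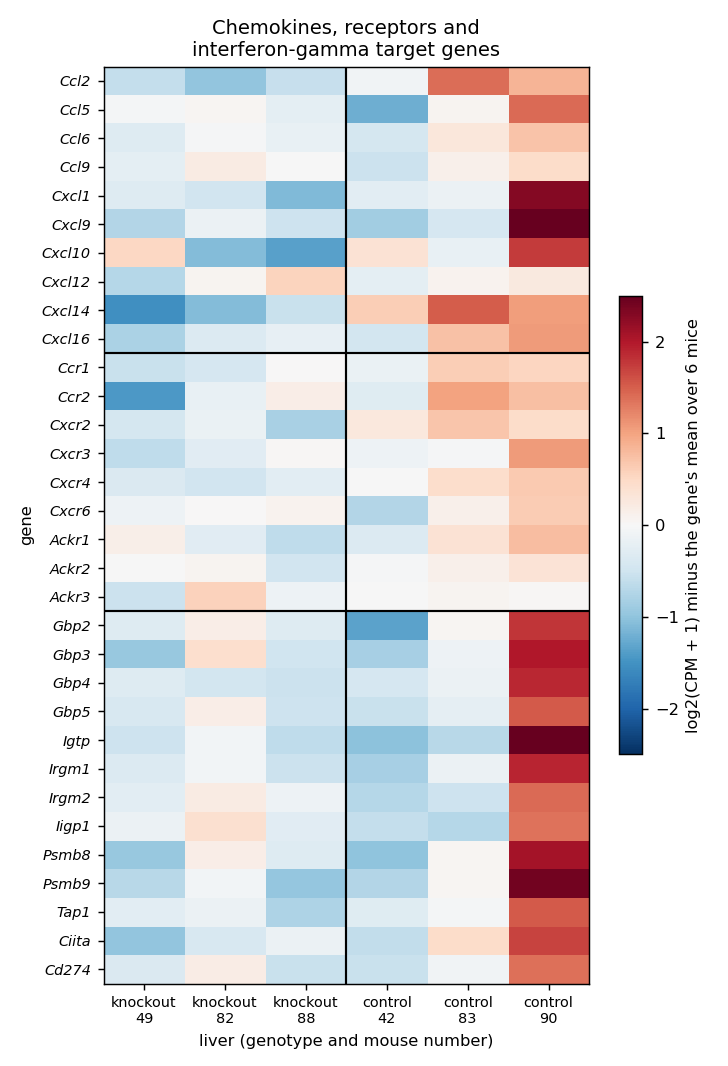
Heat map of log2(CPM + 1) minus the mean of each gene over 6 mice, for the chemokine genes (top block), receptors (middle) and interferon-gamma target genes (bottom), with knockout livers left of control livers. Colours saturate at the ends of the scale. The column of control mouse 90 is red in Cxcl1, Cxcl9, Cxcl10 and all 13 interferon-gamma target genes, while Ccl2 and Cxcl14 are blue in all 3 knockout livers.

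Cxcl16 is made as a membrane-bound protein that is shed by ADAM10 and binds CXCR6 on T cells and NKT cells. On chromosome 11 it spans 70453983 to 70459984 of the minus strand and overlaps Zmynd15 on the other strand. Zmynd15 had 779 counts over the 6 mice, and the strand setting of the counting is not given, so the 2 genes may share reads. Cxcl16 had 11.5, 15.9 and 17.7 CPM in knockout mice 49, 82 and 88, against 14.5, 34.9 and 43.8 CPM in control mice 42, 83 and 90. Control mouse 42 lay among the knockout livers. The log2 fold change was -1.05 (SE 0.37, adjusted p = 0.374 in edgeR), from -1.39 without mouse 42 to -0.78 without mouse 90, and DESeq2 called it only without mouse 42 among its 7 comparisons (adjusted p = 4.23e-04, with 5.84% of genes called there). With all mice the adjusted p of Cxcl16 in DESeq2 was 0.169 (0.329 to 0.641 without each other mouse). Over the 13 alternatives, which do not include DESeq2 with a mouse left out, the adjusted p ran from 0.0926 to 0.839. Cxcr6 averaged 1.55 ± 0.19 CPM in knockout and 1.75 ± 1.21 CPM in control livers (SD, n = 3 each; log2 fold change -0.16, adjusted p = 0.926 in edgeR), and the sign turned in limma-voom (0.14) and without mouse 90 (0.34).

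Ccl5, Ccl6 and Ccl9 lie close to other CC genes on chromosome 11, minus strand. Ccl5 spans 83525778 to 83530518, Ccl9 spans 83572919 to 83578636 and Ccl6 spans 83587882 to 83593087, with 9245 bases between the last pair. Ccl5, a product of T cells and NK cells whose receptors include CCR1 and CCR3, had 5.92, 6.44 and 5.04 CPM in knockout mice 49, 82 and 88, against 2.07, 6.56 and 18.1 CPM in control mice 42, 83 and 90. Control livers held both the lowest and the highest value, with 8.75-fold between them, against 1.28-fold among knockout livers. Mouse 90 lay 2.76-fold above the next highest liver, against 2.47-fold for Cxcl10. The log2 fold change of Ccl5 was -0.61 (SE 0.62, adjusted p = 0.721 in edgeR), and its sign turned without mouse 90, to 0.36. Ccr3, with 9 counts in knockout and 5 in control livers, was too low to be tested.

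Ccl6 and Ccl9 are rodent CC chemokines made by myeloid cells that act through CCR1. Ccl6 had 16.9, 20.98 and 18.6 CPM in knockout mice 49, 82 and 88, against 15.4, 26.1 and 35.7 CPM in control mice 42, 83 and 90. Ccl9 had 46.9, 64.6 and 55.2 CPM in knockout mice 49, 82 and 88, against 37.9, 60.8 and 76.7 CPM in control mice 42, 83 and 90. In both genes the knockout livers lay inside the range of the control livers. The log2 fold change was -0.45 for Ccl6 (SE 0.29, adjusted p = 0.579 in edgeR), and -0.19 without mouse 90. For Ccl9 it was -0.07 (SE 0.26), with a 95% interval from -0.67 to 0.52 and the sign turned without mouse 90 (0.12) or mouse 49 (0.04). Ccr1 averaged 1.72 ± 0.578 CPM in knockout and 3.32 ± 1.15 CPM in control livers (SD, n = 3 each; log2 fold change -0.95, SE 0.42, adjusted p = 0.455 in edgeR).

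Cxcl12, the ligand of CXCR4 and of the atypical receptor ACKR3, keeps blood-forming cells and lymphocytes in their niches and is made by stromal and endothelial cells. On chromosome 6 it spans 117168535 to 117181367 of the plus strand. It had 183, 313 and 446 CPM in knockout mice 49, 82 and 88, against 254, 319 and 357 CPM in control mice 42, 83 and 90. Knockout livers held both the lowest and the highest value. For Cxcl12 the log2 fold change came to 0.02 (SE 0.32), with a 95% interval from -0.71 to 0.75, and its sign turned with total counts alone (-0.14), with limma-voom (-0.05), and without mouse 42 (-0.10) or 88 (-0.35). Cxcr4 had 4.06, 3.67 and 4.396 CPM in knockout mice 49, 82 and 88, against 5.4, 7.78 and 9.24 CPM in control mice 42, 83 and 90. Its groups did not overlap, with a log2 fold change of -0.88 (SE 0.29, adjusted p = 0.347 in edgeR). Ackr3 averaged 4.05 ± 2.02 CPM in knockout and 3.997 ± 0.125 CPM in control livers (SD, n = 3 each; log2 fold change 0.01, a sign that 6 of 13 alternatives turned).

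**Figure D3:**
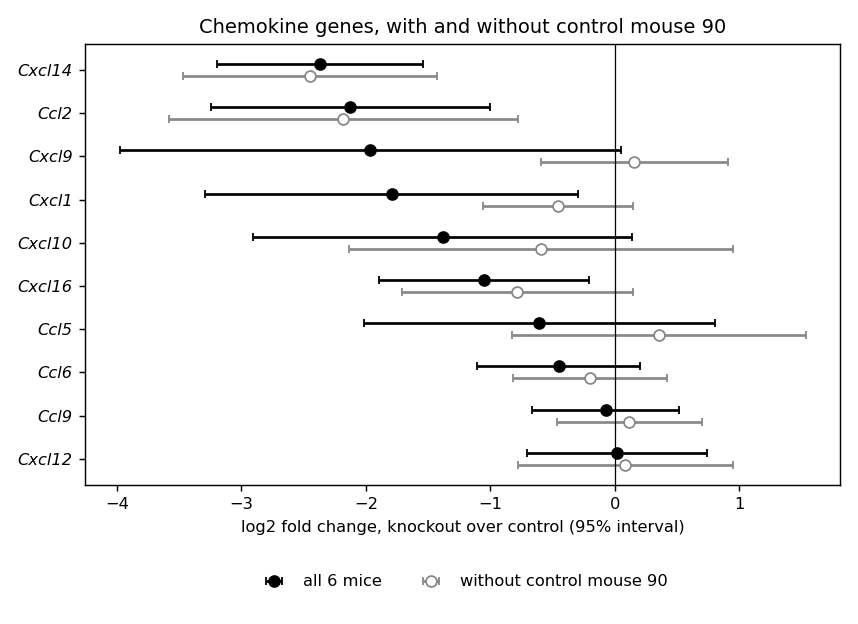
Log2 fold change of each chemokine gene (x axis, knockout over control) with its 95% interval, from all 6 mice (filled) and without control mouse 90 (open). Cxcl14 and Ccl2 are at -2.37 and -2.12 with all mice and at -2.45 and -2.18 without mouse 90, while Cxcl9, Ccl5 and Ccl9 cross to the other side of 0.

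On the length-scaled level (counts divided by exon length, on a common total), Cxcl12 was the most abundant of the 10 by the group means, at 97.7 ± 38.4 in knockout and 105 ± 22.3 in control livers (SD, n = 3 each), although Cxcl1 exceeded it in mouse 90, at 170 against 92.1. Ccl2 had the lowest mean in knockout livers, at 2.96 ± 0.929, and with all mice also in control livers, at 14.3 ± 10.2 (SD, n = 3 each). In knockout livers Cxcl12 came first, followed by Ccl9, Ccl6, Cxcl1, Ccl5, Cxcl16, Cxcl10, Cxcl9, Cxcl14 and Ccl2. There the neighbours Cxcl12 and Ccl9, Ccl9 and Ccl6, Cxcl1 and Ccl5, and Cxcl14 and Ccl2 did not overlap, and the other neighbours overlapped. In control livers the order was Cxcl12, Cxcl1, Ccl9, Ccl6, Cxcl14, Cxcl16, Ccl5, Cxcl9, Cxcl10 and Ccl2, and every pair of neighbours overlapped. Within each mouse, Ccl9 exceeded Ccl6 in all 3 control livers, while the other pairs kept this order in 1 or 2. The order of the control means depended on mouse 90. By the means of control mice 42 and 83 it was Cxcl12, Ccl9, Cxcl1, Cxcl14, Ccl6, Cxcl16, Ccl2, Ccl5, Cxcl10 and Cxcl9, with Cxcl9 last at 6.50 and Ccl2 at 16.2. Cxcl14 held place 9 by its mean in knockout and place 5 in control livers with all mice, at 5.62 ± 2.24 and 32.5 ± 16.1 (SD, n = 3 each). Of the 10 genes, 7 were highest in control mouse 90, Ccl2 and Cxcl14 in control mouse 83 and Cxcl12 in knockout mouse 88. Counts of genes highest in mouse 90, here and above, have no share of all genes beside them.

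**Figure D4:**
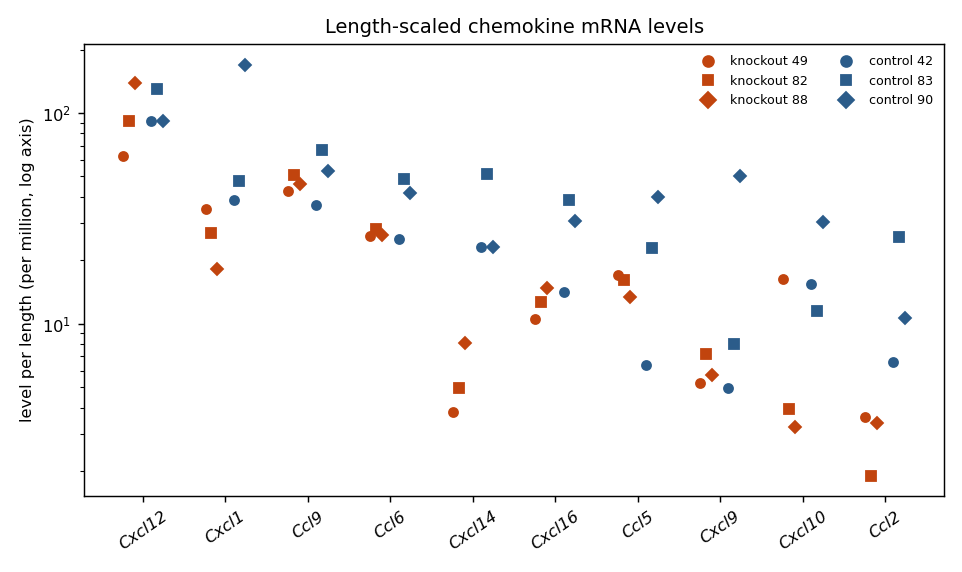
Length-scaled levels (y axis, log scale) of the 10 chemokine genes, ordered by their control mean, with knockout livers in orange left of control livers in blue and 1 symbol per mouse. Cxcl12 is at 62.3 to 139 in knockout and 91.4 to 130 in control livers, and Cxcl14 is at 3.82 to 8.12 in knockout and 23.1 to 51.1 in control livers.

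The rest of the chemokine system was read in the same way. Of 27 other chemokine genes 12 were tested, of which 9 had negative fold changes (median -0.66), 0 passed the adjusted threshold and 1, Cxcl5, was lower at an unadjusted p under 0.05 (5.95% of all genes). Without mouse 90, 13 were tested and 10 had negative fold changes (median -0.64). Cxcl5, another CXCR2 ligand, averaged 0.625 ± 0.295 CPM in knockout and 1.88 ± 1.36 CPM in control livers (SD, n = 3 each; log2 fold change -1.60, SE 0.63, adjusted p = 0.415 in edgeR). Ccl22, a CCR4 ligand of dendritic cells, followed with a log2 fold change of -1.19 (SE 0.60, adjusted p = 0.483 in edgeR). Of 18 signalling receptors 9 were tested and all 9 had negative fold changes (median -0.95). Among these 0 passed the adjusted threshold, 3 were lower at an unadjusted p under 0.05 (Ccr7, Cxcr2 and Cxcr4; 5.95% of all genes), and the same 3 had separate groups (7.95%). Ccr7, which guides dendritic cells and naive lymphocytes to lymph nodes, had 0.644, 0.6 and 0.865 CPM in knockout mice 49, 82 and 88, against 1.53, 2.54 and 2.29 CPM in control mice 42, 83 and 90 (log2 fold change -1.59, SE 0.42, adjusted p = 0.311 in edgeR). Knockout livers lay below control livers without overlap. Without mouse 90, 10 signalling receptors were tested, 9 with a negative and 1 with a positive fold change (median -0.82).

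Of 5 atypical receptors all were tested, with 3 negative and 2 positive fold changes, 0 past the adjusted threshold and 0 at an unadjusted p under 0.05. Ccrl2, which presents chemerin, was at -0.98 (SE 0.45) and Ackr4, a scavenger of CCL19, CCL21 and CCL25, at 0.96 (SE 0.53; adjusted p = 0.46 and 0.528 in edgeR). Without mouse 90, 4 of the 5 had negative fold changes and 1 a positive one. The positive one was Ackr4, at 1.58 (SE 0.49, unadjusted p = 0.0155 and adjusted p = 0.407 in edgeR). Ackr1, which carries chemokines across venules, averaged 0.821 ± 0.50 CPM in knockout and 1.67 ± 0.977 CPM in control livers (SD, n = 3 each; log2 fold change -0.995, and -0.60 without mouse 90). Ackr2, which degrades inflammatory CC chemokines, averaged 2.97 ± 0.767 and 3.83 ± 0.624 CPM in knockout and control livers (log2 fold change -0.36). Both overlapped between genotypes.

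Of 25 genes for inducing cytokines, their receptors and the NF-kB and interferon routes, 22 were tested, 21 with negative fold changes (median -0.30), or 15 without mouse 90 (median -0.12). Among them 0 passed the adjusted threshold in edgeR, and at an unadjusted p under 0.05 there were 3 lower (5.95% of all genes) and 1 higher (5.06%). The higher one was Il1r1, the signalling receptor of interleukin 1, at 82.1, 117 and 111 CPM in knockout mice 49, 82 and 88, against 65.1, 55.5 and 65.4 CPM in control mice 42, 83 and 90. All knockout livers exceeded all control livers, as in 8.94% of all genes (log2 fold change 0.74, SE 0.19, adjusted p = 0.305 in edgeR). DESeq2 called Il1r1 at an adjusted p under 0.05, and edgeR and limma-voom did not. Relb, a subunit of the non-canonical NF-kB dimer, was at -0.99 (SE 0.31, adjusted p = 0.336 in edgeR) with separate groups. Of 8 enzymes that shed or trim chemokines 6 had negative fold changes, and 5 had separate groups, all lower, against 7.95% of all genes. Without mouse 90, 7 had negative fold changes and 5 had separate groups, all lower, against 14.9% of all genes. Mmp12, the macrophage metalloelastase, led them at -0.80 (SE 0.24) with Mmp14 next at -0.51 (SE 0.20; adjusted p = 0.323 and 0.404 in edgeR).

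Kupffer cell markers summed to 188 to 380 CPM in knockout and 151 to 366 CPM in control livers. Fold changes were positive for 6 of 6, and 0 had separate groups. B cell markers summed to 3.00 to 3.10 CPM in knockout and 7.20 to 12.2 CPM in control livers. Fold changes were negative for 4 of 4, against 52.7% of all genes. All 4 had separate groups and were lower, against 7.95% of all genes, while 0 passed the adjusted threshold in edgeR. Dendritic cell markers summed to 14.4 to 21.6 CPM in knockout and 16.8 to 30.2 CPM in control livers, bile duct markers to 48.1 to 120 CPM and 92.7 to 201 CPM, and sinusoidal endothelial markers to 242 to 414 CPM and 282 to 418 CPM. Stellate cell markers, among them Lrat, summed to 327 to 662 CPM in knockout and 686 to 920 CPM in control livers. None of these lists held a marker at 0 in every mouse. Their part in the chemokine values was not tested.

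The members followed different patterns over the 6 livers. Likeness was measured as the root mean square difference of mean-centred log2 CPM over the 6 mice, among 12752 tested genes of at least 1 CPM on average, and is a description without a test. Ccl6 and Ccl9 were each the member nearest to the other (0.19), as were Ccl2 and Cxcl14 (0.52) and Cxcl1 and Cxcl9 (0.50), whereas Cxcl9 and its neighbour Cxcl10 differed by 1.08. The spread of a member about its own mean on the same scale ran from 0.33 for Ccl9 to 1.30 for Cxcl9.

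The genes nearest to Cxcl14 were Fam163a (0.27) and Loxl1 (0.29), an enzyme that cross-links elastin. Loxl1 had 3.86, 7.49 and 7.42 CPM in knockout mice 49, 82 and 88, against 26.9, 30.9 and 29.9 CPM in control mice 42, 83 and 90. Like Cxcl14, it was lower in every knockout liver, which its selection by likeness to Cxcl14 favours. Nearest to Ccl2 were Il21r, the receptor of interleukin 21 (0.22), and Wfdc18 (0.26). Nearest to Cxcl9 were Igtp (0.18) and Socs1, a feedback inhibitor of cytokine signalling (0.28), and nearest to Cxcl1 were H2-Q7, a non-classical MHC class I gene (0.24), and Gbp4 (0.27). These 4 genes were all highest in mouse 90, which follows from their selection by likeness to members that peak there. Ccl5 was nearest to Gbp2 (0.19) and Nkg7, a granule protein of cytotoxic cells (0.21). Cxcl10 was nearest to Arhgef39 (0.39) and Gsta1 (0.39). Cxcl16 was nearest to Lpcat2 (0.081) and Sh3bgrl3 (0.11), Ccl6 to Unc93b1, which carries nucleic acid-sensing Toll-like receptors (0.025), and Fuca2 (0.067). Ccl9 was nearest to Itpk1 (0.054) and Ptgs1 (0.070), and Cxcl12 to Slc43a3 (0.098) and Trib2 (0.11).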

How the data were processed

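RNA of 6 whole livers was sequenced after TRIzol extraction and NEBNext Ultra library preparation, per the labels' protocols. The authors deposited raw counts per gene symbol for all 6 mice. Per the submitters' processing notes, Trimmomatic, FastQC, STAR and HTSeq were used with mm10. Overlapping antisense genes cannot be told apart, because the strand setting, like the annotation, is not given in the sources used. The labels describe separate mice.

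Counts were filtered with filterByExpr (13153 of 21983 genes kept), scaled by TMM and tested with edgeR 4.0.16 (R 4.3.3) by the quasi-likelihood F test, fitting genotype alone. P-values were adjusted by Benjamini-Hochberg over all genes tested, with a threshold of 0.05. Each log2 fold change is knockout over control and has a 95% interval. CPM are counts relative to the TMM-scaled library size. Levels per length divide counts by the GENCODE M21 union exon length and are set on the same total. DESeq2 1.42.0, limma-voom (limma 3.58.1), other scalings and filters and leaving out each mouse were alternatives. DESeq2 with each mouse left out was added after seeing the data.

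The members and gene lists were chosen with earlier results of these data known. Named whatever their values were the members, Prmt1 and the members' receptors (1 is not reported here), then the 2 tested genes of smallest p in each other list of the chemokine system and the 2 genes nearest in pattern to each member. Start regions are from RefSeq (7 of 10 members matched), and the motif letters were chosen after these sequences were seen.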

Additional observations from a re-analysis of the deposited data

How the results depend on the processing

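Genes past the adjusted threshold numbered 0 in edgeR with all mice (1448 at an unadjusted p under 0.05), 4 without the low-count filter, 3 at an adjusted p of 0.1, 0 to 13 with each mouse left out, 0 in limma-voom and 238 in DESeq2. DESeq2 with each mouse left out, chosen after seeing the data, gave 494, 46 and 72 without knockout mice 49, 82 and 88, and 752, 46 and 235 without control mice 42, 83 and 90. Members past the threshold numbered 0 in edgeR, also with each mouse left out, 2 in DESeq2, and 1 to 4 in DESeq2 with each mouse left out. The median of the members was -1.22, from -1.49 without mouse 42 to -0.32 without mouse 90, and -1.77 in the 4 mice numbered over 80. Members with separate groups numbered 3, from 3 to 6 with a mouse left out (6 without mouse 42, where 17.9% of all genes were separate and lower) and 7 in the 4 mice numbered over 80 (27.1% of all genes). Prmt1 ranged from -0.81 to -0.54 with each mouse left out.

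Of 130 alternative fold changes of members, 122 kept their direction and 8 turned. Those were Cxcl12 with total counts alone (-0.14), limma-voom (-0.054) or without mouse 88 (-0.35) or 42 (-0.10), Ccl9 without mouse 49 (0.04) or 90 (0.12), Ccl5 (0.36) and Cxcl9 (0.16) without mouse 90. Among receptors, Cxcr6 turned in limma-voom (0.14) and without mouse 90 (0.34). Ackr3 turned with total counts alone (-0.16), no filter (-0.0098), limma-voom (-0.12), and without mouse 82 (-0.47), 42 (-0.0082) or 90 (-0.03). Over the fits that left out a mouse, the other ends of the ranges were -1.07 for Ccl5, -0.30 for Ccl9 and -2.46 for Cxcl9 without mouse 42, 0.30 for Cxcl12 without mouse 49, -0.59 for Cxcr6 without mouse 42 and 0.29 for Ackr3 without mouse 49. The cause was not tested. No paired analysis was possible because mouse numbers are not shared between genotypes. Low counts limit Ccl2, with 56 counts in knockout and 281 in control livers. They also limit Ccr7 (30 and 101), Cxcl5 (27 and 98), Ccl22 (26 and 66) and receptors near 1 CPM in knockout livers such as Cxcr2 and Cxcr3.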
